A study of Homo sapiens with 6 samples.

Results

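The mRNA levels of 10 genes that make, elongate and desaturate fatty acids in the cytosol and at the endoplasmic reticulum were compared between untreated and propionate treated Meg-01 cells. The genes were ACLY, ME1, ACACA, FASN, ELOVL5, ELOVL6, SCD, FADS1, FADS2 and SREBF1. They were chosen by function and matched by gene symbol to the rows of a count table of 58735 genes. All 10 were found, and all 10 were among the 15078 genes with enough counts to be tested.

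Meg-01 is an established line of human megakaryoblasts. C3 stands for propionate, a short chain fatty acid released by gut bacteria. RNAseq libraries were made from 3 samples of untreated cells (control) and from 3 samples of cells given 500 µM sodium propionate (C3). The labels state 48 h for the C3 samples and no time for the control samples, and the methods name both 24 h and 48 h. The 3 libraries of a group were described as technical replicates of a single cell line, so the p-values below measure the spread between these samples and not between independent cultures. Libraries held 16159449 to 22821722 counts, and the members had 483 to 43468 counts in a library.

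Fatty acid synthesis starts from citrate, which ACLY splits to give cytosolic acetyl-CoA. ACACA carboxylates it to malonyl-CoA, and FASN joins these units into palmitate with NADPH that comes in part from ME1. ELOVL6 and ELOVL5 lengthen acyl chains, SCD places a double bond in saturated chains, and FADS2 and FADS1 are the delta-6 and delta-5 desaturases of polyunsaturated fatty acid synthesis. SREBF1 encodes SREBP-1, a transcription factor known to activate genes of this pathway.

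FADS2 was the only member that changed at an adjusted p-value below 0.05, and it fell by 22.5% after C3 (95% interval -29.2 to -15.2%, n = 3 libraries per group). None of the 10 members was higher by the quasi-likelihood test of edgeR (p-values adjusted by the Benjamini-Hochberg method), by DESeq2 or by limma-voom, and 0 were higher at an unadjusted p-value below 0.05. Of all tested genes, 11.0% were higher and 8.77% were lower at an adjusted p-value below 0.05 by edgeR. So 1 of 10 members lower is close to the share over all genes. At an unadjusted edgeR p-value below 0.05, at least 4468 of the 15078 tested genes differed in either direction. Differentially expressed genes (DEGs) were taken with the gates that the study gives with its results. These were read here as a fold change of more than 1.3 in either direction at an adjusted p-value under 0.01. With these gates 0 members were higher and 0 were lower by each of the 3 tools, against 5.05% of all tested genes higher and 1.47% lower. FADS2 passed the p-value gate, and its log2 fold change of -0.37 was just short of the fold gate of 0.38. Without C3 replicate 1 it was -0.41, and FADS2 was then 1 DEG.

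The other 9 members had adjusted p-values of 0.30 to 0.94, and their 95% intervals lay between -0.29 and 0.23 on the log2 scale. The median log2 fold change of the members was -0.029, beside 0.0021 over all tested genes. Log2 fold changes were negative for 8 members and positive for 2, but with library size alone as the scaling 5 of these 8 were positive. The C3 libraries were all below the control libraries for 2 members, FADS1 and FADS2, and all above them for 0 members. Such separation downward was seen for 16.9% of all tested genes and upward for 17.5%. In bulk RNA, fewer cells of a type and less RNA per cell cannot be told apart.

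**Figure D1:**
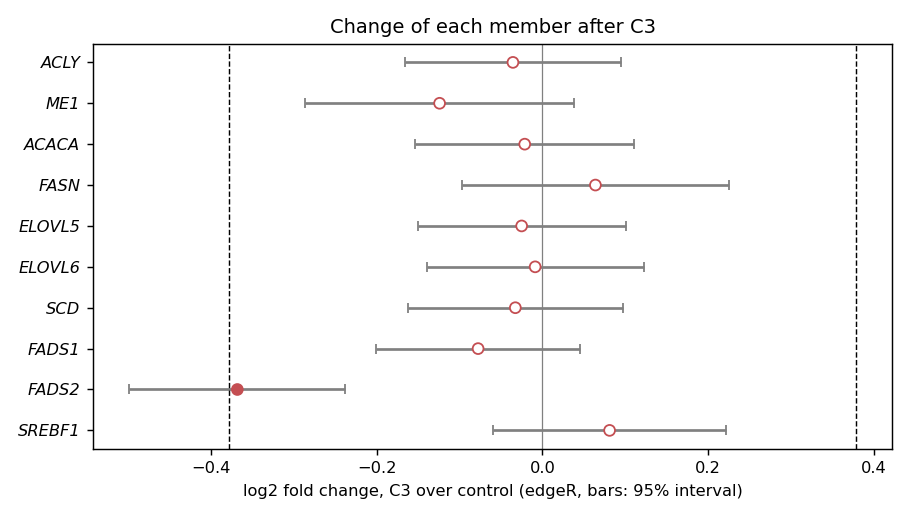
Log2 fold change of C3 over control for each member (points, horizontal axis) with its 95% interval (bars), the filled point being called at an adjusted p-value below 0.05 and the dashed lines marking the fold gate of 1.3. FADS2 lies at -0.37 beside the lower gate, and the intervals of the other 9 members include 0.

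The desaturases held the clearest difference. FADS2, which introduces the delta-6 double bond, had 14489, 14318 and 14278 normalised counts in control replicates 1 to 3 and 11819, 10862 and 10710 in C3 replicates 1 to 3. The highest C3 library was below the lowest control library. The means were 14362 ± 112 in control and 11130 ± 601 in C3 (SD, n = 3), a log2 fold change of -0.37 (SE 0.063, edgeR adjusted p = 1.7e-04). The exact two-sided permutation test gave p = 0.1, the smallest value that 3 against 3 libraries allow.

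FADS1, the delta-5 desaturase, is encoded on the opposite strand within the span of the FADS2 gene model. It had 3866, 3971 and 4043 normalised counts in control and 3781, 3757 and 3719 in C3. These groups did not overlap either, but the gap was small. The log2 fold change was -0.078 (SE 0.060, edgeR adjusted p = 0.40), and its 95% interval of -13.0 to 3.18% included 0. SCD, which makes oleate and palmitoleate, had 14675, 14853 and 15585 normalised counts in control and 14391, 15202 and 14509 in C3. Here the libraries overlapped, and the change was -2.24% (95% interval -10.6 to 6.93%, edgeR adjusted p = 0.77).

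FADS1 and FADS2 were then compared within each library, where scaling between libraries has no part. There were 3.75, 3.61 and 3.53 FADS2 counts for each FADS1 count in control and 3.13, 2.89 and 2.88 in C3. The ratio was 18.3% lower in C3 without overlap between the groups (exact two-sided permutation p = 0.1, adjusted p = 0.18 over 9 ratios). The SCD to FADS2 ratio was 1.01, 1.04 and 1.09 in control and 1.22, 1.40 and 1.36 in C3, again without overlap (exact permutation p = 0.1, adjusted p = 0.18). Both ratios share the FADS2 counts and so repeat the same difference. With 3 libraries per group no ratio could pass 0.05.

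**Figure D2:**
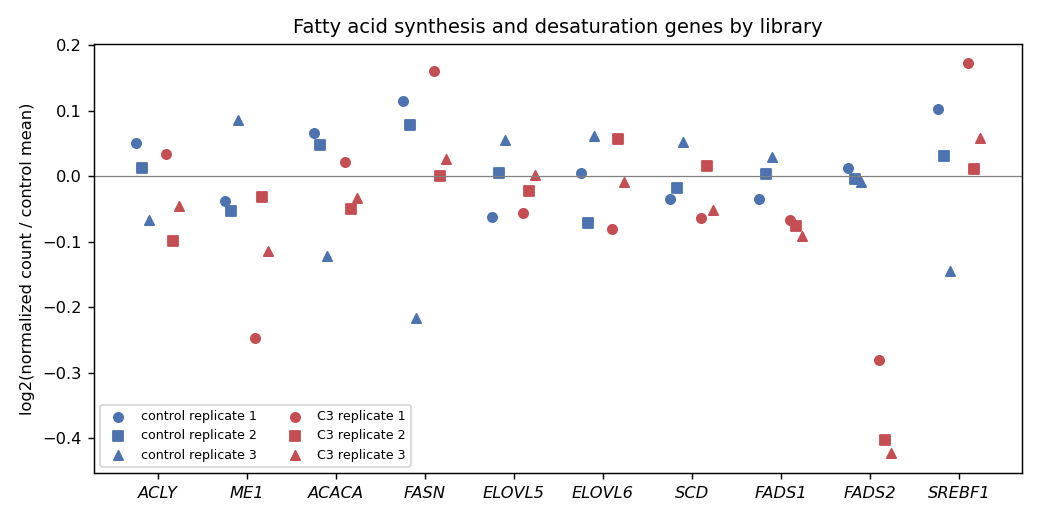
Normalised counts of the 10 members in each library as log2 of the value over the mean of the control libraries (vertical axis), with control and C3 libraries drawn as points. FADS2 is the member with the widest gap between the groups, while control replicate 3 is lowest of the controls for FASN and SREBF1.

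FADS1 (ENSG00000149485) lies at chr11:61799627-61829318 on the minus strand and FADS2 (ENSG00000134824) at chr11:61792980-61867354 on the plus strand (GRCh38, GENCODE 44). Their gene models share exon bases on opposite strands, 4.64% of those of FADS2 and 4.79% of those of FADS1, and FADS2 shares a further 0.464% with FEN1 on its own strand. Whether the counting used strand is not given in the sources used here, and reads on these bases cannot be assigned to either gene with certainty. In RefSeq the FADS1 start (61817003) and the first FADS2 start (61816203) are 800 bases apart. The sequences upstream of these starts are shown as far as they lie outside annotated exons. They were chosen because FADS1 and FADS2 are overlapping genes that differed in the size of their change. SCD, at chr10:100347233-100364826 on the plus strand, is shown as a desaturase elsewhere in the genome. The sequences are from RefSeq (GRCh38.p14), written 5′ to 3′ on the strand of the gene, and capitals mark CCAAT boxes (CCAAT) and GC boxes (GGGCGG) found on either strand.
FADS1, chr11:61817198-61817253, minus strand: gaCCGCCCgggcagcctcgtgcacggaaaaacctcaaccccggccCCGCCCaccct
FADS2, chr11:61816149-61816202, plus strand: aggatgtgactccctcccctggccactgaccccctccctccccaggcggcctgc
SCD, chr10:100346983-100347232, plus strand: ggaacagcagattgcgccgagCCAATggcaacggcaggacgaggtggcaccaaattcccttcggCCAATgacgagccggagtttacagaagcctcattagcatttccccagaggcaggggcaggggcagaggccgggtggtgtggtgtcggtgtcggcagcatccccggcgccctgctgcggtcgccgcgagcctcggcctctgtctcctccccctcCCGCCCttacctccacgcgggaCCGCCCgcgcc

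Over the whole 250 bases before a start, RefSeq windows were found for 9 of the 10 members. A GC box was in a window of 8 of these members and a CCAAT box in a window of 4 (ACLY, ACACA, ELOVL5 and SCD), beside 42.6% and 32.0% of all 35116 windows. An E-box (CACGTG) was in the ELOVL5 window (1 member), beside 6.35% of all windows. The letters TCACNCCAC, a form of the sterol regulatory element, were in a window of 0 members and in 0.883% of all windows. FADS1 had 2 GC boxes, and the window of the first FADS2 start had none of the 4 motifs, while that of the second FADS2 start (61816404) had 1 GC box. These are matches of letters in short windows, some members had several windows, and no binding was measured.

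The genes around FADS2 were looked at after its values had been seen. Of the 8 other tested genes with a midpoint within 150 kb of the FADS2 midpoint, MYRF, a membrane-bound transcription factor, rose from 284, 270 and 225 normalised counts in control to 588, 454 and 514 in C3 (log2 fold change 0.99, edgeR adjusted p = 2.1e-07). RAB3IL1, a Rab guanine nucleotide exchange factor, rose as well (0.57, adjusted p = 9.9e-04), and FTH1, the ferritin heavy chain, fell (-0.31, adjusted p = 0.0021). FEN1, a flap endonuclease of DNA replication that overlaps FADS2, had a log2 fold change of -0.052 (adjusted p = 0.62). FADS3, the third desaturase gene of this cluster, had 0.10 (adjusted p = 0.52). DAGLA, TMEM258 and FADS1 were not called either. These calls stand beside 11.0% of all tested genes higher and 8.77% lower. MYRF and RAB3IL1, which rose, lie on opposite sides of FADS2, and FTH1, which fell, lies on the side of RAB3IL1.

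**Figure D3:**
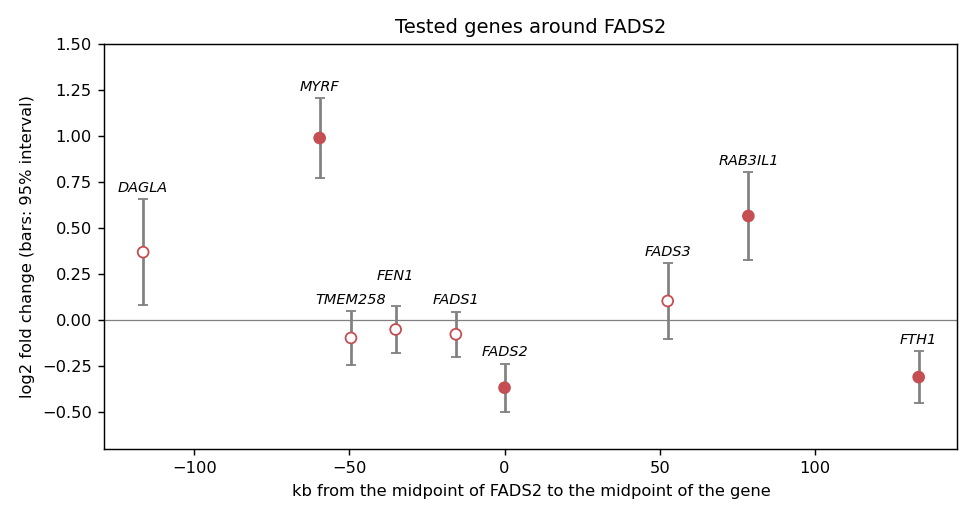
Log2 fold change of C3 over control (vertical axis) against the distance of a gene's midpoint from the FADS2 midpoint in kb (horizontal axis), with 95% intervals and filled points for genes called at an adjusted p-value below 0.05. MYRF and RAB3IL1 lie above 0, FADS2 and FTH1 below it.

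Acetyl-CoA and NADPH supply was represented by ACLY and ME1. ACLY, at chr17:41866917-41930542, had 10728, 10449 and 9890 normalised counts in control and 10605, 9673 and 10039 in C3. The groups overlapped, and the change was -2.43% (95% interval -10.9 to 6.82%, edgeR adjusted p = 0.75). ME1, the cytosolic malic enzyme at chr6:83210402-83431051, was the member with the fewest counts. It had 635.8, 628.8 and 692.5 normalised counts in control and 549.7, 638.3 and 603.0 in C3. One C3 library was above the lowest control library, and the log2 fold change was -0.12 (SE 0.079, edgeR adjusted p = 0.30, 95% interval -18.0 to 2.69%).

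Chain synthesis was represented by ACACA and FASN. ACACA, at chr17:37084992-37406836, had 3452, 3409 and 3029 normalised counts in control and 3347, 3183 and 3221 in C3, with a change of -1.47% (95% interval -10.1 to 7.97%, edgeR adjusted p = 0.86). FASN, at chr17:82078338-82098294, had 36240, 35346 and 28805 in control and 37400, 33471 and 34088 in C3. Control replicate 3 was far below the other control libraries, and the control libraries had a coefficient of variation of 12.1% against 6.04% in C3. The FASN log2 fold change was 0.064 (SE 0.078, edgeR adjusted p = 0.62), and without control replicate 3 it was -0.033.

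Within libraries there were 3.38, 3.38 and 2.91 FASN counts for each ACLY count in control and 3.53, 3.46 and 3.40 in C3, which did not overlap (log2 difference 0.11, exact permutation p = 0.1, adjusted p = 0.18). The FASN to ACACA ratio was separated likewise (log2 difference 0.088, same p-values). Both rested in part on control replicate 3, without which the differences were 0.034 and 0.044.

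Elongation was represented by ELOVL5, which acts on polyunsaturated chains, and ELOVL6, which lengthens palmitate. ELOVL5, at chr6:53267398-53349179, had 4052, 4245 and 4398 normalised counts in control and 4070, 4166 and 4235 in C3. ELOVL6, at chr4:110045846-110199199, had 2172, 2061 and 2260 in control and 2048, 2252 and 2151 in C3. The groups overlapped for both genes. The changes were -1.72% for ELOVL5 (95% interval -9.90 to 7.21%, edgeR adjusted p = 0.83) and -0.602% for ELOVL6 (95% interval -9.22 to 8.84%, edgeR adjusted p = 0.94).

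SREBF1, at chr17:17810399-17837002, had 5018, 4774 and 4225 normalised counts in control and 5264, 4707 and 4866 in C3. Its libraries overlapped, with control replicate 3 lowest, and the log2 fold change was 0.081 (SE 0.068, 95% interval -4.03 to 16.6%, edgeR adjusted p = 0.45). SREBF1 shares 6.75% of its exon bases with RAI1 on the other strand. The ratio of SREBF1 to SREBF2, which encodes the SREBP of cholesterol synthesis, was 0.528, 0.509 and 0.483 in control and 0.562, 0.538 and 0.571 in C3. The groups did not overlap (log2 difference 0.14, exact permutation p = 0.1, adjusted p = 0.18), whereas SREBF2 alone had a log2 fold change of -0.053 (edgeR adjusted p = 0.61). The ratios of ACLY to ME1, ELOVL6 to ELOVL5, SCD to FASN and FASN to SREBF1 overlapped between the groups, with exact permutation p-values of 0.5 to 0.9.

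The members also differed in how alike their libraries were. Likeness was measured as the root mean square difference of centred log2 normalised counts over the 6 libraries. SCD and ELOVL5 were the closest pair (0.030), and ACLY and ACACA followed (0.034). SCD was also the nearest member to ELOVL6 (0.036) and FADS1 (0.036), and FASN and SREBF1 were nearest to each other (0.037). FADS2 was farthest from its nearest member, FADS1 (0.15). Control replicate 3 was the lowest control library for 5 members (ACLY, ACACA, FASN, FADS2 and SREBF1) and the highest for the other 5. The 6 points are the same libraries for every gene, and the likeness is a description only.

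Levels were compared between genes as TPM, that is counts per base of merged exon, scaled to the same total in each library. By this measure FASN was the highest member in control (665 ± 102 TPM), followed by SCD (530 ± 3.95), ACLY (368 ± 27.8), FADS2 (252 ± 10.6) and ELOVL5 (205 ± 2.04). SREBF1 (105 ± 12.7), FADS1 (71.5 ± 1.01), ELOVL6 (55.0 ± 2.18), ACACA (46.9 ± 4.83) and ME1 (36.1 ± 0.995) followed, all as mean ± SD of 3 libraries. No neighbours in this order overlapped in control. The order depends on the merged exon lengths, which join the exons of all annotated transcripts of a gene. They were 10553 bases for FADS2, 10228 for FADS1 and 9321 for FASN. Which transcripts were expressed was not tested, and with other lengths the order could differ. In C3 the order of FADS2 (213 ± 2.63 TPM) and ELOVL5 (220 ± 13.2 TPM) was exchanged, and their ranges overlapped, so these 2 cannot be ordered in C3. TPM were not scaled with TMM factors and were read within a group only.

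**Figure D4:**
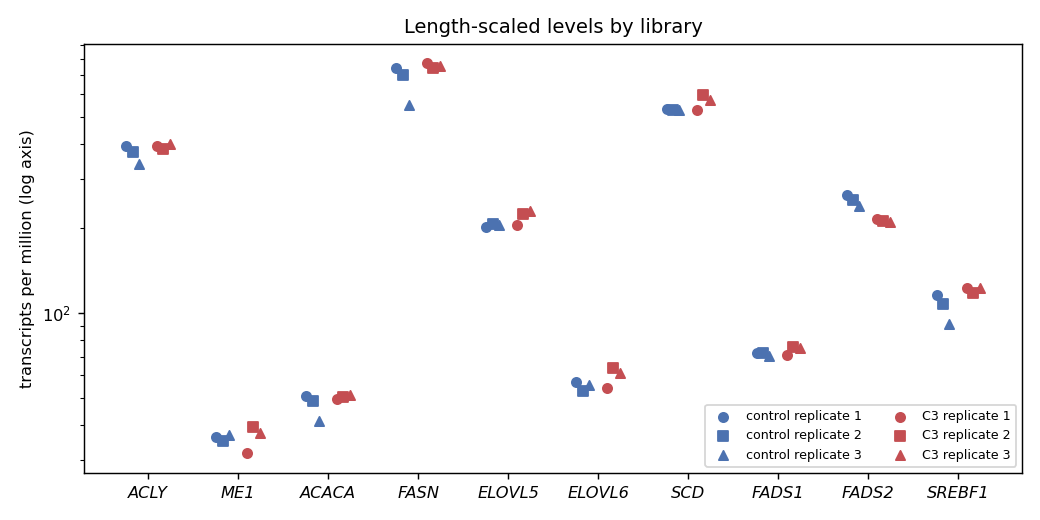
Length-scaled levels of the members in TPM (vertical log axis) in the 3 control and 3 C3 libraries, one point per library. FASN and SCD are the highest and ME1 is the lowest in both groups, and the control libraries of FASN spread from 550 to 742 TPM.

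Other genes of fatty acid metabolism were read from 7 lists written by hand, with the 3 genes of smallest p-value named per list. The counts below stand beside 11.0% of all tested genes higher and 8.77% lower at an adjusted p-value below 0.05. For DEGs the shares were 5.05% higher and 1.47% lower. At an unadjusted edgeR p-value below 0.05, at least 4468 of the 15078 tested genes differed in either direction. No list was tested against these shares. Among 14 tested genes of the list of related fatty acid synthesis genes, 2 rose and 3 fell (median log2 fold change 0.11). SCD5, a second stearoyl-CoA desaturase, rose from 397 ± 1.23 to 559 ± 21.1 normalised counts (log2 fold change 0.49, SE 0.081, edgeR adjusted p = 9.4e-05), while SCD itself was not called. ELOVL1, an elongase of very long saturated chains, fell from 2251 ± 14.3 to 1739 ± 175 (-0.38, adjusted p = 3.0e-04). MLYCD, which removes malonyl-CoA, fell from 280 ± 10.4 to 193 ± 11.1 (-0.54, adjusted p = 7.5e-04). The other calls, named after their values had been seen, were ELOVL2 (0.50, adjusted p = 0.029) and OXSM, the mitochondrial ketoacyl synthase (-0.37, adjusted p = 0.018). SCD5, ELOVL1 and MLYCD were called under each of the 13 alternatives. ELOVL2 was not called without control replicate 1 or 3 or C3 replicate 2 or 3 (adjusted p = 0.13, 0.060, 0.087 and 0.14) or with DESeq2 (0.061), and OXSM was not called without control replicate 3 or C3 replicate 3 (0.091 and 0.12) or with library size alone (0.064).

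The elongation cycle and its electron transfer had 10 tested genes, of which 1 rose and 3 fell (median -0.069), beside 11.0% and 8.77% of all tested genes. Those that fell were TECR, the trans-2-enoyl-CoA reductase (-0.23, adjusted p = 0.011), and the 3-hydroxyacyl-CoA dehydratases HACD3 (-0.22, adjusted p = 0.015) and HACD4 (-0.31, adjusted p = 0.025). HACD1, named after its value had been seen, rose (0.26, adjusted p = 0.032), but was not called by DESeq2 (adjusted p = 0.064) or without control replicate 1 or 2 or C3 replicate 2 or 3 (0.15, 0.058, 0.21 and 0.067). The calls of the genes that fell depended on single libraries as well. Without C3 replicate 3 the TECR and HACD3 adjusted p-values were 0.11 and 0.11. Without C3 replicate 2 those of TECR and HACD4 were 0.059 and 0.11. Without control replicate 2 those of HACD3 and HACD4 were 0.058 and 0.12, and without control replicate 3 that of HACD4 was 0.098. With library size alone HACD3 and HACD4 were not called (adjusted p = 0.12 and 0.11).

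Acyl-CoA ligases and thioesterases had 17 tested genes, of which 2 rose and 3 fell (median -0.11), beside 11.0% and 8.77% of all tested genes. All 3 that fell were DEGs, as were 1.47% of all tested genes in this direction. ACSL5, which activates long chain fatty acids, fell from 1078 ± 62.2 to 663.5 ± 45.2 normalised counts (log2 fold change -0.70, SE 0.074, edgeR adjusted p = 2.0e-07). The thioesterases ACOT2 (-0.40, adjusted p = 2.1e-04) and ACOT8 (-0.39, adjusted p = 0.0011) fell as well, though reads of ACOT2 may be shared with its near-identical paralog ACOT1. With single libraries left out, the log2 fold changes were -0.45 to -0.35 for ACOT2 and -0.46 to -0.34 for ACOT8. The weaker ends were short of the fold gate, so neither thioesterase was a DEG in every such fit. ACSL4 (0.23, adjusted p = 0.019) and ACSL6 (0.91, adjusted p = 0.019) rose and were named after their values had been seen, ACSL6 at only 21.2 to 59.3 normalised counts. Neither was called without control replicate 1 (adjusted p = 0.052 and 0.082) or control replicate 2 (0.10 and 0.089), and ACSL4 was not called without C3 replicate 3 (0.19) nor ACSL6 without C3 replicate 2 (0.11).

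The supply of NADPH and citrate had 15 tested genes, of which 0 rose and 5 fell (median -0.11) by edgeR, beside 11.0% and 8.77% of all tested genes, with 0 higher by DESeq2, by limma-voom and at an unadjusted p-value below 0.05. PGLS and PGD belong to the oxidative pentose phosphate pathway. PGLS fell from 2105 ± 137 to 1551 ± 140 (log2 fold change -0.44, adjusted p = 7.0e-05) and PGD from 10082 ± 151 to 8362 ± 458 (-0.27, adjusted p = 0.0031). IDH2 (-0.25, adjusted p = 0.0088) and MDH1 (-0.20, adjusted p = 0.030) were also among the 5 and were named after their values had been seen. IDH2 was not called without control replicate 2 or C3 replicate 2 or 3 (adjusted p = 0.076, 0.078 and 0.051), and MDH1 was not called without control replicate 2 or 3 or C3 replicate 2 or 3 (0.11, 0.11, 0.071 and 0.15) or with library size alone (0.17). PGLS and PGD were called under all 13 alternatives, whereas the number lower was 3 without control replicate 2, C3 replicate 2 or C3 replicate 3 and 9 without C3 replicate 1.

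The control of SREBP and ChREBP, which includes AMPK subunits, had 26 tested genes, of which 2 rose and 0 fell (median -0.049). At an unadjusted p-value below 0.05, 5 were lower, a threshold that at least 4468 of the 15078 tested genes passed in either direction. By DESeq2 and by limma-voom 0 were lower at an adjusted p-value below 0.05. The 2 were catalytic AMPK subunits, PRKAA1 (0.30, adjusted p = 0.0061) and PRKAA2 (1.02, adjusted p = 0.0078), the latter at only 28.5 ± 3.76 and 56.8 ± 20.8 normalised counts. Without C3 replicate 3 neither was called (adjusted p = 0.064 and 0.13). PRKAG1, a regulatory AMPK subunit, had -0.27 (adjusted p = 0.061), and -0.17 (adjusted p = 0.37) without control replicate 2.

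Among 22 tested genes of cholesterol synthesis, 2 rose and 1 fell (median 0.015). HMGCS1, the HMG-CoA synthase (0.25, adjusted p = 0.020), and STARD4, a sterol carrier (0.29, adjusted p = 0.028), rose, and ACAT2, a cytosolic thiolase, fell (-0.19, adjusted p = 0.037). Of 19 tested genes of glycerolipid synthesis 0 rose, by edgeR, DESeq2, limma-voom or at an unadjusted p-value below 0.05, and 1 fell (median -0.0012). It was AGPAT1, which makes phosphatidic acid (-0.25, adjusted p = 0.012), while MBOAT1 had -0.33 (adjusted p = 0.075) and AGPAT2 -0.13 (adjusted p = 0.17). The calls of HMGCS1, STARD4 and ACAT2 were each lost when single libraries were left out, with adjusted p-values of up to 0.17, 0.18 and 0.18. STARD4 was also not called with DESeq2 (adjusted p = 0.057), nor ACAT2 with library size alone (0.22) or without a count filter (0.090). That of AGPAT1 was lost without control replicate 2 or C3 replicate 3 (adjusted p = 0.12 in each) and with library size alone (0.066).

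**Figure D5:**
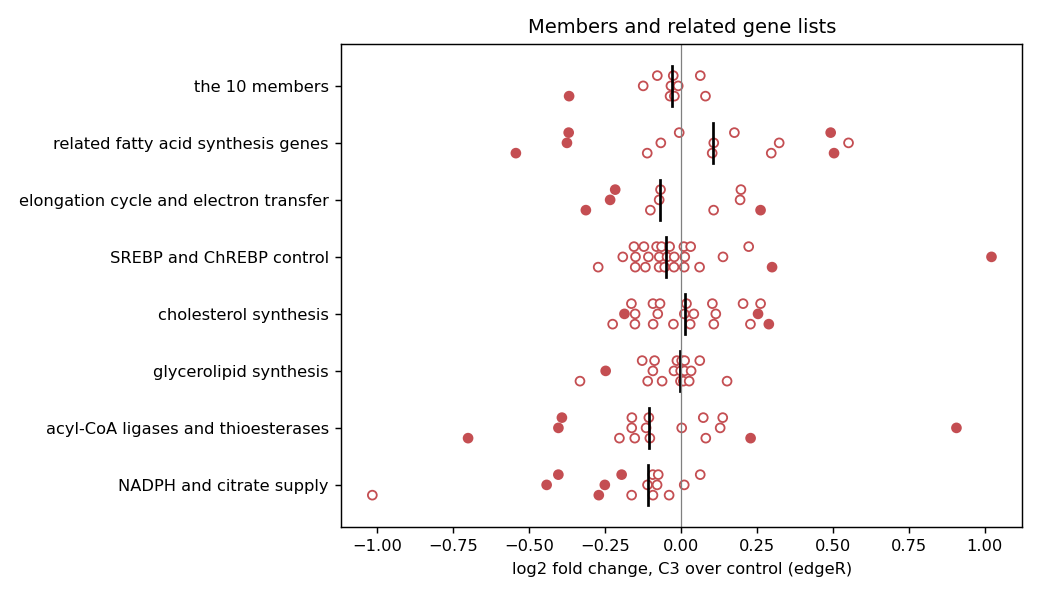
Log2 fold change of C3 over control (horizontal axis) of the tested genes of the members and of the 7 lists of related genes (rows), one point per gene, filled where the adjusted p-value was below 0.05, with a black bar at the median of the row. Most points of each row lie near 0, and ACSL5, at -0.70, is far to the left in the row of acyl-CoA ligases and thioesterases.

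Markers of the cell line and of other cells were read in the same libraries. Of 12 megakaryocyte markers 11 were tested, ITGB3 was higher and GP1BA and NFE2 were lower after C3, and PF4 was at 0 in all libraries. Their summed normalised counts were 39290 to 40960 in control and 36660 to 38850 in C3. Adipocyte markers summed to at most 7.16 normalised counts in a library, with ADIPOQ, LEP and FABP4 at 0, and hepatocyte markers to at most 23.3. The 3 T, B and monocytic markers summed to 8.82 to 20.2 in control and 11.8 to 23.9 in C3, and the 3 erythroid markers to 124 to 162 and 144 to 193, with ALAS2 higher. Fibroblast markers summed to 20.3 to 26.5 in control and 29.6 to 54.1 in C3, and COL1A1 rose (log2 fold change 1.89, edgeR adjusted p = 0.0094) at 10.5 to 26.7 normalised counts in C3. The part of these markers in the fall of FADS2 was not tested.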

How the data were processed

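RNAseq of 3 control and 3 C3 samples of Meg-01 was analysed, grouped by the labels. The authors deposited raw read counts per gene, without normalisation, for 58735 genes. According to the submitters' processing notes, fastp, STAR 2.6.1d and featureCounts 1.5.0-p3 were used with GRCh38/hg38. The annotation release is not given in the sources used here, nor is the use of strand.

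A gene was tested when 3 or more libraries had 10 or more counts for it (15078 genes, 99.9% of counts). Libraries were scaled with TMM factors (0.966 to 1.04) and compared with edgeR 4.0.16 (R 4.3.3), quasi-likelihood test, Benjamini-Hochberg adjustment over all tested genes, threshold 0.05, without a replicate block. The coefficient of variation between replicates was 6.21%. For normalised counts, each count was divided by its library's effective size and multiplied by the mean of these sizes. Symbols and coordinates came from GENCODE 44 (58207 genes matched). TPM used merged exon length. Ratios and single genes had exact two-sided permutation tests, and ratios were adjusted over 9. Intervals cover the spread between these libraries only. Replicates differed by more than sampling noise (lowest chi-square per degree of freedom 2.44). The methods were tested on simulated data.

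The named genes are the members, the 3 genes of smallest p-value in each of 7 lists, SREBF2, and the nearest member by likeness. Exceptions are marked, and 1 gene that the rule names is not reported here. Members and lists were chosen with earlier results of these data known. Alternatives were DESeq2 1.42.0, RLE factors, scaling by library size alone, testing without a count filter or from a mean count of 50, limma-voom (limma 3.58.1), the replicate number as a block, and each library left out. The mouse and platelet experiments were not analysed here.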

Additional observations from a re-analysis of the deposited data

How the results depend on the processing

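FADS2 was called in all 13 alternatives, with log2 fold changes of -0.41 to -0.30 and adjusted p-values of 6.9e-09 to 0.0049, and no other member was called in any. FADS1 (-0.082 to -0.0035), ME1 (-0.17 to -0.048) and SREBF1 (0.014 to 0.15) kept their sign. Members near 0 did not. With library size alone the log2 fold changes were 0.052 for ACACA, 0.037 for ACLY, 0.050 for ELOVL5, 0.066 for ELOVL6, 0.042 for SCD and 0.019 for SREBF2, all negative with TMM factors. ELOVL6 was 0.0048 with a mean count of at least 50 and 0.0020 without a count filter.

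Library size alone moved the median of all genes from 0.0021 to 0.076 and the share of higher calls from 55.6% (1658 higher and 1323 lower) to 79.2% (2312 higher and 609 lower). It gave 6 higher and 0 lower genes of cholesterol synthesis, 2 higher and 1 lower of the elongation cycle, and 0 lower of glycerolipid synthesis. DESeq2 gave 1 higher gene of cholesterol synthesis, 0 of the elongation cycle and 1 of the related fatty acid synthesis genes. A mean count of at least 50 gave 1 higher gene of SREBP and ChREBP control and 1 of the acyl-CoA list, and no count filter gave 0 lower genes of cholesterol synthesis. The causes of these shifts were not tested.

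The replicate numbers are not stated to mark shared cultures, and same-numbered libraries did not deviate together (correlations 0.021, -0.047 and 0.030). Control replicates 2 and 3 correlated best with C3 replicates 1 and 2 (0.064 and 0.058). With the replicate number as a block 1852 genes were higher and 1550 lower, with 4 genes of cholesterol synthesis higher and 1 of SREBP and ChREBP control lower. PRKAG1 was then called. The FADS2 log2 fold change with the block was -0.37, and paired permutation of a ratio cannot go below 0.25.

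With each library left out, 1053 (without C3 replicate 3) to 1860 (without C3 replicate 1) genes were higher, and 591 to 1891 were lower without these same libraries. Log2 fold changes were -0.069 to 0.0030 for ACLY, -0.078 to 0.026 for ACACA, -0.033 (without control replicate 3) to 0.14 (without control replicate 1) for FASN, -0.043 to 0.0040 for ELOVL5 and -0.042 to 0.027 for ELOVL6. They were -0.055 (without C3 replicate 2) to -0.0057 (without control replicate 3) for SCD and -0.090 to -0.018 for SREBF2. Log2 ratio differences were -0.022 to 0.049 for ELOVL6 to ELOVL5, -0.048 to 0.011 for FASN to SREBF1 and -0.18 to 0.028 for SCD to FASN. DEGs lower among the members were 0 to 1, the 1 being FADS2 without C3 replicate 1. Lower genes were 3 to 9 for NADPH and citrate supply, 0 to 1 for SREBP and ChREBP control, 3 to 6 for the acyl-CoA list, 0 to 3 for cholesterol synthesis, 1 to 4 for the elongation cycle and 0 to 2 for glycerolipid synthesis, each highest without C3 replicate 1. Higher genes were 0 to 2 for SREBP and ChREBP control (0 without C3 replicate 3), 0 to 2 for the acyl-CoA list (0 without control replicate 1 or 2), 0 to 3 for cholesterol synthesis (0 without control replicate 2 or C3 replicate 3), 0 to 1 for the elongation cycle (0 without control replicate 1 or 2 or C3 replicate 2 or 3) and 1 to 2 for the related genes (1 without control replicate 1 or 3 or C3 replicate 2 or 3). The members had at least 483 counts in a library, and ME1, with the fewest counts, had the widest interval (half-width 0.16 on the log2 scale, beside 0.12 for the narrowest).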
